A study of Rattus norvegicus with 32 samples.

Results

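Cytochrome P450 enzymes, sulfotransferases and the other enzymes that oxidise, reduce and conjugate small molecules were examined in cultured rat epithelial cells. The genes were chosen by symbol: families Cyp1 to Cyp4, Sult, Gst, Mgst, Ugt, Ephx1, Ephx2, Nqo1, Nqo2, the Fmo genes and Por. A total of 96 probe sets with 1 gene symbol met this rule, for 95 genes of the 14511 genes measured (15316 probe sets), and Gsta4 had 2 of them. All 96 were found in the rat RefSeq gene table under the same symbol, and 7 further probe sets that pair a symbol of these families with other symbols were left out.

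The study asked whether thymic epithelial cells exposed to skin take on features of hair follicle cells. All cells came from Sprague-Dawley rats that express green fluorescent protein in every tissue, and all were grown on irradiated 3T3-J2 cells, a mouse fibroblast line used as a feeder layer. Thymic epithelial cells (TEC) were studied before grafting (4 cultures), after a first transplantation into skin on nude mice (4) and after a second (4). Hair follicle (HF) cells were studied after a first transplantation (2 cultures) and before grafting (2). The ungrafted TEC cultures were PRE16cl11_VII from embryonic day 16 (E16), PRP1cl11_VII from postnatal day 1 (P1), and PRP4mo_bulk and PRP4mo_Cl09 from 4-month-old rats. Clone_217 and Clone_218 (E16), Clone_57 (P1) and Clone_907 (4 months) were recovered from a first transplantation, and Clone_287 and Clone_347 (E16), Clone_194 (P1) and Clone_354 (4 months) from a second. The HF cultures were YR219P5_RC and Clone_54 after grafting, and YR219P5_Bulk_V and YR219P5cl7 before it, all labelled P5 without further explanation. In all, 11 cultures were clonal and 5 were bulk; 3 of the 4 cultures from 4-month-old rats were bulk and 0 of those from E16 and P1 rats, so age and culture form cannot be told apart there. Nude mice lack a working thymus, and the grafted cultures bear other names than the ungrafted ones. An effect of the skin, a choice of certain cells by grafting and recovery, and longer culture cannot be told apart. The labels do not say which cultures came from separate animals, so the p-values measure the spread between these cultures only.

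Each culture was measured on 2 arrays, whose mean was taken as its value. Values are log2 RMA signals, a scale on which a difference of 1 is a doubling of signal, and levels of different probe sets cannot be set against each other. Array medians lay between 5.287 and 5.554 except for the first array of YR219P5_RC (5.782). A level was called above background where it passed 4.47, the 95th percentile over 59 probe sets of olfactory receptor genes, and levels under it were not shown to lie above background. In bulk RNA, fewer cells that express a gene cannot be told apart from less RNA per cell. The epithelial keratin and adhesion genes averaged 9.25 to 9.83 in TEC cultures before grafting, 8.15 to 9.66 after the first and 8.16 to 9.34 after the second transplantation. The same list averaged 7.94 to 7.98 in HF cultures after grafting and 7.53 to 7.81 before it. Of its 9 probe sets, 8 lay above the limit in all 16 cultures. The fibroblast and feeder list averaged 4.88 to 5.42 in TEC and 5.02 to 5.38 in HF cultures. Of its 8 probe sets, 5 lay above the limit in all 16 cultures, and Dcn and Lum lay above it in none. The hepatocyte list averaged 4.27 to 4.73 in TEC and 4.44 to 4.81 in HF cultures. Of its 6 probe sets, 2 lay above the limit in all 16 cultures, and Alb, Apoh and Ttr lay above it in none. Genes particular to thymus or follicle were not analysed here.

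Drug-metabolising enzymes act in sequence. Cytochrome P450 monooxygenases, supplied with electrons by the reductase encoded by Por, and flavin monooxygenases (Fmo) add oxygen to lipophilic molecules, epoxide hydrolases (Ephx) open epoxides, and the quinone reductases Nqo1 and Nqo2 reduce quinones. Glutathione transferases (Gst, Mgst), sulfotransferases (Sult) and glucuronosyltransferases (Ugt) then attach glutathione, sulfate or glucuronic acid, which makes the product easier to excrete. The transcription factors that are best known for driving these genes are the aryl hydrocarbon receptor Ahr, which binds the core GCGTG, and Nfe2l2 (NRF2), which binds antioxidant response elements with the core TGACNNNGC and is held back by Keap1. The liver is the main site, and stratified epithelia such as the epidermis hold a smaller set.

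Promoters were printed for the neighbouring genes Sult1d1, called higher after grafting, and Sult1b1, whose difference did not pass, and for Nqo1, Nqo2 and Gsta4, called lower in P1 than in E16 cultures. Each is the RefSeq sequence in build GRCr8 from 250 bases before to 50 bases after the gene's start, 5′ to 3′, and capitals mark the core GCGTG, which reads CACGC where it lies on the opposite strand.
Sult1d1 (chr14:20720829-20721128, plus strand): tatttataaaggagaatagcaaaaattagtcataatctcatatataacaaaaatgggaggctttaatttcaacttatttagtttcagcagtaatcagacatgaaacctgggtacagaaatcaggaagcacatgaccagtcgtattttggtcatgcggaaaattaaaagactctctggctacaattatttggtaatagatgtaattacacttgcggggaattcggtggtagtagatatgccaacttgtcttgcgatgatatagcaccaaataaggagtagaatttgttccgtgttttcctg
Sult1b1 (chr14:20771667-20771966, plus strand): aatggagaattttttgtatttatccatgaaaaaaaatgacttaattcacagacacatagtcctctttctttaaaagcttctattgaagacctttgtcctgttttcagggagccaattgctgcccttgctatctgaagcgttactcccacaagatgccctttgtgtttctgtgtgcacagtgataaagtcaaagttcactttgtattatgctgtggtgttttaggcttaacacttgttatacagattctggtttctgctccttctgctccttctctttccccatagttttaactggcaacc
Nqo1 (chr19:52220218-52220517, minus strand): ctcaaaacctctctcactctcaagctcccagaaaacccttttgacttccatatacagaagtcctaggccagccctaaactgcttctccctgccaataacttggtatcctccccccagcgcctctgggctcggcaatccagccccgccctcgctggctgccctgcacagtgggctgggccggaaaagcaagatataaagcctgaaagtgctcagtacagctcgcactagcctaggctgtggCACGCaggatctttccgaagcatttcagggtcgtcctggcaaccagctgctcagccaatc
Nqo2 (chr17:31143613-31143912, minus strand): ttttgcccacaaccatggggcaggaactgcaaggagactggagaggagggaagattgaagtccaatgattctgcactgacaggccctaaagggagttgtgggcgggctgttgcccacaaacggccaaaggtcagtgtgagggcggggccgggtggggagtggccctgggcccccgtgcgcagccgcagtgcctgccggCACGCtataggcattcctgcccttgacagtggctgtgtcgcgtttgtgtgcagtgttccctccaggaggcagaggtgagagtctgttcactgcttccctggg
Gsta4 (chr8:87947015-87947314, plus strand): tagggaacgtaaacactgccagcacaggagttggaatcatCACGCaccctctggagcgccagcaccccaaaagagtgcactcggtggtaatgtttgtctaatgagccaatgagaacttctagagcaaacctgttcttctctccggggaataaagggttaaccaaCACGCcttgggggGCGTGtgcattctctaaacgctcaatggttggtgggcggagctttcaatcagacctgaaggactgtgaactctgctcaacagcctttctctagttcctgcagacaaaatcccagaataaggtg

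Both strands of each window were searched. The cores can share letters, since TGACNNNGC may end where GCGTG begins, which did not arise in the windows printed. The core GCGTG occurred once in the Nqo1 and once in the Nqo2 window, 3 times in the Gsta4 window and in neither sulfotransferase window. It was found in 23 of 88 promoters of the enzyme genes (26.1%; 83 genes had at least 1 promoter in the table), against 29.7% of all 33469 promoters. The core TGACNNNGC was in 0 of the 5 windows printed, in 9 of the 88 (10.2%) and in 12.1% of all promoters. These are matches of letters within 300 bases and say nothing of binding.

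Among the conjugating enzymes, transcripts of the glutathione transferases were the most widely present. Of the 96 probe sets, 32 lay above the limit in all 16 cultures, 20 in some and 44 in none. Glutathione transferases made up the largest share of the first set, with 13 of 17 Gst probe sets and both Mgst genes above the limit in every culture, and Gstp1, the pi-class transferase, had 11.25 to 12.57. Mgst2 ran from 10.41 to 11.58. Of 12 sulfotransferases 3 lay above it in all cultures and 4 in some. The 8 Ugt genes and Cyp1a1, the classical Ahr target, lay above it in none. Of the 48 P450 genes 11 were above the limit in all cultures and 25 in none, and the 4 Fmo genes were above it in at most 1 culture each (Fmo1 at 3.84 to 4.51, Fmo4 at 3.38 to 4.18). Ephx2, which hydrolyses fatty acid epoxides, ran from 3.58 to 4.91, Cyp1b1 from 3.50 to 5.35 with 1 culture above the limit, and Cyp3a2 from 2.54 to 3.24. Cyp2s1, Cyp2t1, Cyp2u1, Cyp3a9, Cyp4f6 and Por lay above 5 in every culture.

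**Figure D1:**
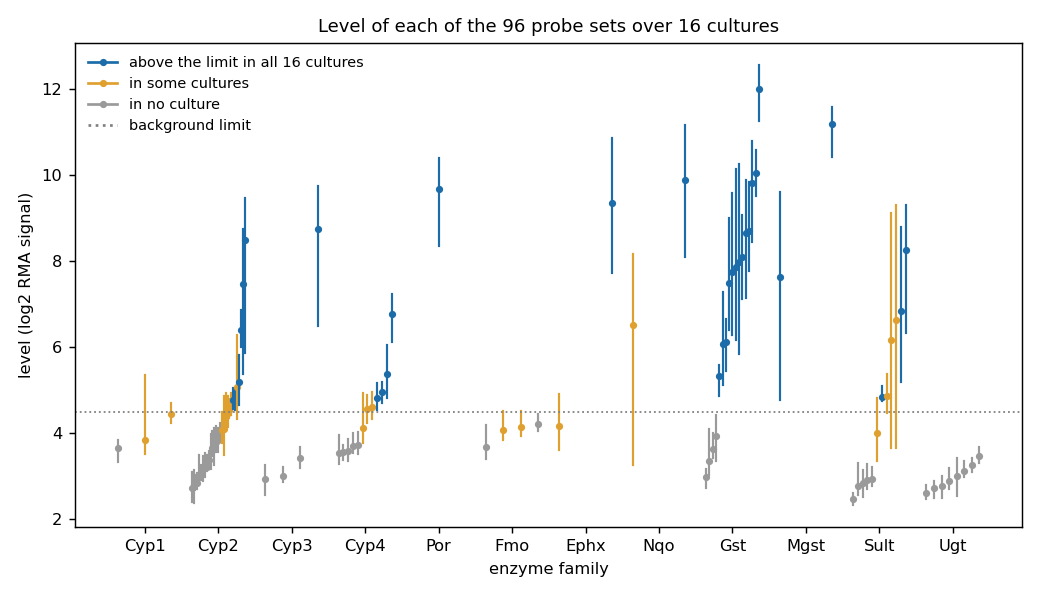
Level (log2 RMA signal, vertical axis) of each of the 96 probe sets by enzyme family: points are means over 16 cultures and vertical lines run from the lowest to the highest culture. Blue probe sets (32) lay above the background limit of 4.47 in all cultures, orange ones (20) in some and grey ones (44) in none; the 8 Ugt genes are all grey.

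The median standard deviation (SD) over the 16 cultures was 0.191 for the 96 members and 0.205 for all probe sets. It was 0.615 for the 32 members above the limit throughout, against 0.248 for all 10363 probe sets above it throughout, and the SD of these members between arrays of a culture was 0.129. An SD over 1 was found for 8 members (8.33%), against 1.74% of all probe sets, and these were Sult1d1, Mgst1, Sult1b1, Nqo2, both Gsta4 probe sets, Gstm1 and Sult1a1. The 44 members above the limit in no culture had an SD of 0.137 between cultures and 0.18 between arrays, and 18 of them were highest in YR219P5_RC, the culture with the bright array. Their small differences were read with that array left out as well.

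Grafted TEC cultures held more transcript of the phenol sulfotransferase Sult1d1 and of the glutathione transferase Gstm1. Against ungrafted TEC cultures, 2 of 96 members passed the test after any transplantation (adjusted p under 0.05, limma with Benjamini-Hochberg adjustment over 15316 probe sets), both higher, where 4.83% of all probe sets passed (2.4% higher, 2.44% lower). After the second transplantation alone the same 2 members passed, where 3.86% of all probe sets did (1.93% higher, 1.93% lower). After the first transplantation 0 members passed, where 0.516% of all did (0.215% higher, 0.3% lower) and 13 members had an unadjusted p under 0.05. Between the second and the first transplantation 0 members passed, where 0.0% of all did and 1 member had such a p, Cyp2d1 (0.29 ± 0.10, adjusted p = 1.0), followed by Mgst2, a membrane-bound glutathione transferase (−0.35 ± 0.21). The share of members called lay near or below that of all probe sets in each of these comparisons. An unadjusted p under 0.05 was held by 13.5% of members and 14.8% of all probe sets after the first transplantation. Between the second and the first transplantation the shares were 1.04% and 3.47%. The comparisons with ungrafted TEC share its 4 cultures.

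Sult1d1, which in mice sulfates dopamine and related amines, stood at 4.04, 3.64, 5.53 and 4.24 in PRE16cl11_VII, PRP1cl11_VII, PRP4mo_bulk and PRP4mo_Cl09 before grafting. It stood at 8.58, 8.62, 5.51 and 8.56 in Clone_217, Clone_218, Clone_57 and Clone_907 after the first transplantation. After the second it stood at 8.64, 9.30, 5.93 and 7.61 in Clone_287, Clone_347, Clone_194 and Clone_354. The P1 clones were the lowest of each grafted group, and Clone_57 lay just under PRP4mo_bulk, while the second group lay wholly above the ungrafted cultures. Over both grafted groups the difference was 3.48 ± 0.67 (log2, SE; adjusted p = 0.0126), and after the second transplantation it was 3.51 ± 0.77 (adjusted p = 0.028). As 3 of the 4 ungrafted cultures were under the limit, the fold was at least 8.65 over both grafted groups. After the first transplantation the difference was 3.45 ± 0.77, with an adjusted p of 0.07. Without PRP4mo_Cl09 the adjusted p over both groups was 0.0513 (difference 3.44). After the second transplantation the call was lost without PRE16cl11_VII, PRP1cl11_VII, PRP4mo_Cl09, Clone_347 or Clone_354, with differences of 3.03 to 3.59 and adjusted p of 0.0507 to 0.0781.

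Each grafted TEC culture also held more Sult1d1 than every ungrafted culture of its own donor stage (8 of 8). The mean difference within a stage was 4.74 in E16, 2.08 in P1 and 3.20 in 4-month cultures (log2; 1, 1 and 2 ungrafted cultures, no test). With donor stage in the model the difference over both grafted groups was 3.40 ± 0.42 (adjusted p = 0.00317), and that after the first transplantation was 3.37 ± 0.48 (adjusted p = 0.0141). HF cultures stood at 6.18 and 6.49 after grafting (YR219P5_RC, Clone_54) and at 7.06 and 5.87 before it (YR219P5_Bulk_V, YR219P5cl7), between the ungrafted TEC cultures and the higher grafted ones. The difference between the grafting effects in TEC and HF was 3.58 ± 1.34 (adjusted p = 0.827). The epithelial marker list averaged 8.15 to 9.66 after the first and 8.16 to 9.34 after the second transplantation, against 9.25 to 9.83 before grafting, and its part in the result was not tested.

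Sult1b1, which sulfates phenols and thyroid hormones, lies next to Sult1d1 on chromosome 14 in RefSeq, with Sult1e1, the estrogen sulfotransferase, on one side of the pair and Ugt2a1 on the other. Sult1b1 stood at 6.20, 4.89, 4.85 and 4.71 before grafting, in the culture order used for Sult1d1. It stood at 7.63, 8.80, 5.42 and 8.17 after the first and at 8.47, 9.11, 5.08 and 6.72 after the second transplantation. The P1 clones were again the lowest of the grafted cultures, and both lay below PRE16cl11_VII, so the groups overlapped. The difference over both grafted groups was 2.26 ± 0.72 (adjusted p = 0.0866) and did not pass. It passed with donor stage in the model (1.93 ± 0.44, adjusted p = 0.0284) or with arrays as the unit and a replicate block (2.26 ± 0.50, adjusted p = 0.0021). The array fit counts both arrays of each culture and takes 1 shared correlation for all genes. Its smaller p therefore does not come from more cultures. All 8 grafted cultures lay above the ungrafted cultures of their own stage, by a mean of 2.30 in E16, 0.36 in P1 and 2.66 in 4-month cultures. The neighbours Sult1e1 and Ugt2a1 lay above the limit in no culture. HF cultures stood at 4.61 and 5.41 after grafting and at 3.65 and 4.83 before it.

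Gstm1, a mu-class glutathione transferase, stood at 5.83, 6.40, 7.45 and 6.76 before grafting, at 9.66, 7.74, 7.76 and 8.55 after the first and at 8.54, 10.26, 8.03 and 9.22 after the second transplantation, in the same order. All 8 grafted cultures lay above all 4 ungrafted ones. The difference was 2.11 ± 0.54 over both grafted groups (4.31-fold, adjusted p = 0.0425) and 2.40 ± 0.62 after the second transplantation (5.28-fold, adjusted p = 0.049). The first of these calls was lost without any 1 of 10 cultures, namely the 4 ungrafted TEC cultures, Clone_217, Clone_907, Clone_347, Clone_354, YR219P5_RC and Clone_54, with differences of 1.85 to 2.39 and adjusted p of up to 0.114. The second was lost without any 1 of 12 cultures, all but Clone_217, Clone_57, YR219P5_Bulk_V and YR219P5cl7, with differences of 1.99 to 2.73 and adjusted p of up to 0.123. YR219P5_Bulk_V, an ungrafted HF culture, stood at 9.98, above the other HF cultures (7.26 and 7.02 after grafting, 7.18 before it). Gstm2, Gstm1 and Gstm4 are neighbours on chromosome 2 in RefSeq and alike in sequence, and how far their probes share transcripts was not tested. Gstm4 averaged 9.01 ± 0.55 after grafting (SD, n = 8) and 8.07 ± 0.36 before it (n = 4), a difference of 0.95 ± 0.26 (SE) with an adjusted p of 0.0565.

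Other conjugating enzymes had higher values in some grafted cultures without passing the test. Mgst1, a membrane-bound glutathione transferase, stood at 4.77, 6.99, 6.21 and 5.36 before grafting, at 8.79, 5.93, 8.42 and 9.16 after the first and at 9.61, 5.33, 8.86 and 5.62 after the second transplantation. Clone_218, Clone_347 and Clone_354 stayed within the ungrafted range, and the other 5 grafted cultures lay above it. The difference over both grafted groups was 1.88 ± 0.81 (adjusted p = 0.202). HF cultures stood at 9.48 and 9.41 after grafting and at 8.77 and 9.38 before it, and ungrafted TEC differed from ungrafted HF by −3.24 ± 1.15 (adjusted p = 0.208) with no overlap. Sult1a1, a phenol sulfotransferase, ran from 5.91 in Clone_354 to 8.79 in Clone_907 after grafting and from 5.18 to 6.66 before it (1.17 ± 0.53, adjusted p = 0.227). Gstt2, a theta-class transferase, averaged 9.14 ± 0.70 after the first transplantation and 8.05 ± 0.83 before grafting (SD, n = 4 each; 1.09 ± 0.50 SE, adjusted p = 0.326).

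The P450 gene Cyp2t1 had lower values in grafted than in ungrafted TEC cultures of the same donor stage. It did not pass the test over both grafted groups unless donor stage was in the model. It stood at 8.74, 8.44, 7.41 and 7.39 before grafting, at 7.56, 7.55, 7.47 and 6.31 after the first and at 7.89, 7.25, 7.36 and 5.37 after the second transplantation. The 4-month cultures Clone_907 and Clone_354, both bulk, were the lowest of their groups, and Clone_347 and Clone_194 also lay just under the lowest ungrafted culture, while the other 4 grafted cultures lay within the ungrafted range. The difference over both grafted groups was −0.90 ± 0.42 (adjusted p = 0.237). With donor stage in the model it was −1.29 ± 0.16 (adjusted p = 0.00321), and 8 of 8 grafted cultures lay below the ungrafted cultures of their stage. E16 and P1 each had only 1 ungrafted culture, and the 4-month stage had 2. Cyp4v3, a fatty acid hydroxylase, reached 4.92 and 4.79 in the ungrafted 4-month cultures and lay under the limit in the other cultures.

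**Figure D2:**
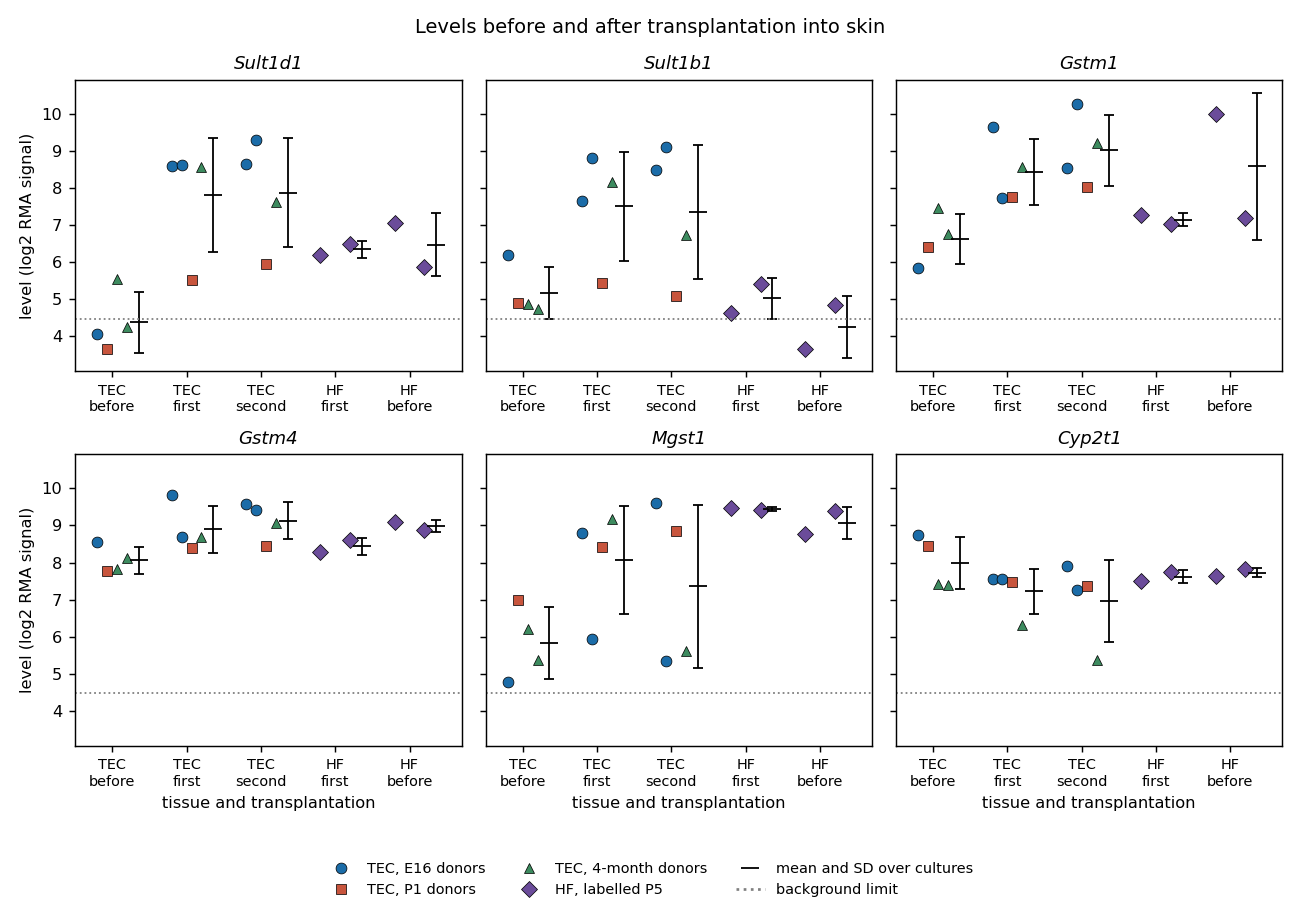
Levels (log2 RMA signal) of 6 enzyme genes in each culture by tissue and transplantation, with donor stage as symbol and colour, and bars for the mean and SD over cultures of a group. Sult1d1 lay between 3.64 and 5.53 in ungrafted TEC cultures and between 5.51 and 9.30 in grafted ones, with both grafted P1 clones under 6, while Mgst1 had 5 grafted TEC cultures above 8 and 3 under 6.

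In HF cultures no enzyme gene passed the test after the first transplantation against before it, where 0.0% of all probe sets passed and 7 members had an unadjusted p under 0.05. Those 7 were 7.29% of members, against 8.84% of all probe sets. With 2 cultures a group, Cyp2s1 had the smallest p among members above background (1.29 ± 0.43, adjusted p = 0.562). Cyp2s1 is a P450 expressed in epithelia outside the liver. It stood at 8.16 and 8.10 after grafting and at 5.86 in YR219P5_Bulk_V and 7.82 in YR219P5cl7 before it. Leaving out YR219P5cl7 leaves 1 ungrafted HF culture, which is then assumed to vary like the other groups. The median change in HF cultures was 0.133 over the members and 0.102 over all probe sets, and the bright first array of YR219P5_RC belongs to the grafted group. Cyp2c22, with the next smallest p (0.38 ± 0.14), was under the limit in every culture. The test of whether grafting acted differently in TEC and HF cultures called 0 members and 0.0% of all probe sets. At an unadjusted p under 0.05 it held 9 members (9.38%), against 5.65% of all probe sets. They were led by Cyp2d1 (−0.57 ± 0.18) and Gstm1 (3.26 ± 1.08), each with an adjusted p of 0.827.

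TEC cultures held more Por and Cyp2s1 transcript than HF cultures over the states before grafting and after the first transplantation combined. In that comparison 4 of 96 members passed, where 4.17% of all probe sets did (2.1% higher, 2.08% lower), with Por and Cyp2s1 higher and Cyp2d1 and Cyp4f40 lower in TEC. Before grafting 1 member passed, Cyp2s1, where 1.55% of all did (0.966% higher, 0.588% lower). After the first transplantation 1 member passed, Cyp2d1, where 0.0718% of all did (0.0457% higher, 0.0261% lower). Between TEC after the second and HF after the first transplantation 0 members passed, where 0.0457% of all did (0.0326% higher, 0.0131% lower) and 15 members had an unadjusted p under 0.05. Those 15 were 15.6% of members, against 21.0% of all probe sets. The smallest p there were those of Cyp2d1 (−0.53 ± 0.12, adjusted p = 0.0998) and Por (0.84 ± 0.23, adjusted p = 0.12). Across the 5 groups as a whole 3 members differed (Cyp2d1, Por and Cyp2s1), where 2.42% of all probe sets did. Over both states the share of members called was also 4.17%, and after the first transplantation the 1 call made up 1.04% of members.

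Por, the electron donor of the microsomal P450 enzymes, stood at 10.23, 9.90, 10.05 and 10.15 in TEC after the first transplantation (Clone_217, Clone_218, Clone_57, Clone_907), against 9.0 and 9.39 in grafted HF cultures. Before grafting it stood at 9.51, 10.12, 9.60 and 9.44 in TEC and at 8.35 and 9.01 in HF cultures. The tissues did not overlap in either state. The difference over both states was 0.94 ± 0.17 (1.91-fold, adjusted p = 0.0101). Within 1 state it did not pass, with 0.88 ± 0.23 after the first transplantation (adjusted p = 0.168) and 0.99 ± 0.23 before grafting (adjusted p = 0.0527). It was 0.77 without YR219P5_Bulk_V (adjusted p = 0.0534) and 0.84 without YR219P5_RC (adjusted p = 0.067).

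Cyp2s1 stood at 8.87, 9.16, 8.81 and 9.46 in TEC after the first transplantation, against 8.16 and 8.10 in HF. Before grafting it stood at 8.85, 8.63, 8.31 and 8.59 in TEC, against 5.86 (YR219P5_Bulk_V) and 7.82 (YR219P5cl7) in HF. The tissues did not overlap in either state. The difference was 1.35 ± 0.27 over both states (2.55-fold, adjusted p = 0.0179) and 1.75 ± 0.38 before grafting (3.37-fold, adjusted p = 0.0392). After the first transplantation it was 0.95 ± 0.38 and did not pass (adjusted p = 0.248). Without YR219P5_Bulk_V the difference before grafting was 0.77 and the call was lost, with 1 ungrafted HF culture assumed to vary like the other groups. Leaving out YR219P5cl7 also leaves 1 ungrafted HF culture. The call before grafting was also lost without any 1 of the 4 ungrafted TEC cultures, Clone_194, Clone_354, YR219P5_RC or Clone_54, with differences of 1.67 to 1.85 and adjusted p of 0.0505 to 0.0808. The call over both states was lost without YR219P5_RC (1.36, adjusted p = 0.0776) or Clone_54 (1.33, adjusted p = 0.0539).

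Cyp2d1, which belongs to the subfamily that hydroxylates many basic drugs, stood at 4.94, 4.65, 4.96 and 4.81 in TEC after the first transplantation, against 5.82 and 5.5 in HF. Before grafting it stood at 5.20, 5.33, 5.12 and 5.15 in TEC, against 5.29 and 5.61 in HF, and the second TEC transplantation gave 5.03, 5.18, 5.17 and 5.14. The grafted groups did not overlap, and the ungrafted ones did. The difference was −0.54 ± 0.09 over both states (adjusted p = 0.00801) and −0.82 ± 0.12 after the first transplantation (adjusted p = 0.0275). After the first transplantation it was −0.67 without YR219P5_RC (adjusted p = 0.727), and the call was also lost without PRE16cl11_VII, PRP4mo_Cl09, Clone_217, Clone_218, Clone_907, Clone_194 or Clone_54, with adjusted p of 0.0502 to 0.0859. With arrays as the unit and a replicate block the adjusted p was 0.102 over both states and 0.154 after the first transplantation. Cyp2d5, Cyp2d1, Cyp2d3 and Cyp2d2 are neighbours on chromosome 7 in RefSeq and alike in sequence, so the probe set may read more than 1 of them. Cyp4f40 was under the limit in all 12 of these cultures (−0.27 ± 0.07, adjusted p = 0.0407), and no fold is given. Its call was lost with the first array of YR219P5_RC left out (adjusted p = 0.0697), with the medians of the arrays set equal (adjusted p = 0.115), and without any 1 of 12 cultures, all but PRP1cl11_VII, Clone_57, Clone_287 and Clone_347, with differences of −0.32 to −0.23 and adjusted p of up to 0.19. The epithelial marker list was higher in TEC (8.15 to 9.66 after the first transplantation and 9.25 to 9.83 before it) than in HF cultures (7.94 to 7.98 and 7.53 to 7.81), and its part in these results was not tested.

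**Figure D3:**
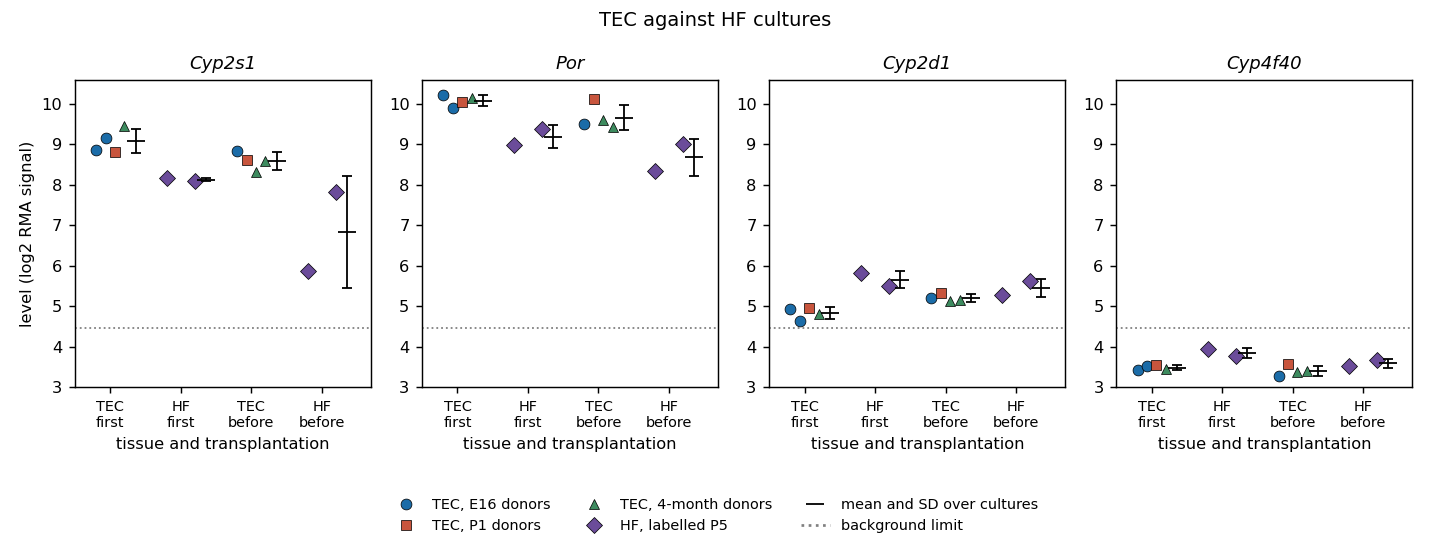
Levels (log2 RMA signal) of Cyp2s1, Por, Cyp2d1 and Cyp4f40 in TEC and HF cultures after the first transplantation and before grafting, with bars for the mean and SD over cultures and a dotted line at the background limit of 4.47. Cyp2s1 and Por were higher in every TEC culture than in every HF culture of the same state, and Cyp4f40 lay under the limit throughout.

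Most calls among the enzyme genes came from comparisons between donor stages. The labels do not say which cultures of a stage came from separate animals, so stage and animal cannot be told apart. Among the 12 TEC cultures, with transplantation state in the model, 12 of 96 members passed between P1 and E16, 3 higher and 9 lower in P1, where 6.08% of all probe sets passed (2.85% higher, 3.23% lower). This comparison and that of 4 months with P1 were added after the members' values were seen. Of the lower members, Nqo1, Nqo2, Gsta4 (both probe sets), Gstm2, Gstm4, Ephx1, Sult1b1 and Sult1d1 cover quinone reduction, glutathione transfer, epoxide hydrolysis and sulfation. Cyp3a9, Cyp2j3 and Gstk1 were higher. Between 4 months and P1 6 members passed, where 0.353% of all did (0.157% higher, 0.196% lower): Nqo1, Nqo2, both Gsta4 probe sets and Gstm2 were higher at 4 months and Cyp2t1 was lower. Between 4 months and E16 1 member passed, Cyp2t1, where 0.0914% of all did (0.0522% higher, 0.0392% lower). The P1 cultures, 3 in number, are shared by the 2 added comparisons.

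Nqo1, a quinone reductase and a classical NRF2 target whose promoter window is shown above, stood at 10.03, 11.09, 11.15, 10.85 and 10.71 in the E16 cultures (PRE16cl11_VII, Clone_217, Clone_218, Clone_287, Clone_347). It stood at 8.71, 8.79 and 8.95 in the P1 cultures (PRP1cl11_VII, Clone_57, Clone_194) and at 9.67, 9.73, 10.13 and 9.81 in the 4-month cultures (PRP4mo_bulk, PRP4mo_Cl09, Clone_907, Clone_354). The P1 cultures lay below both other stages with no overlap. P1 differed from E16 by −1.89 ± 0.16 (3.70-fold lower, adjusted p = 0.00141), and 4 months from P1 by 1.09 ± 0.16 (2.13-fold higher, adjusted p = 0.0337). Ungrafted HF cultures stood at 8.08 in YR219P5_Bulk_V and 9.89 in YR219P5cl7, and grafted HF cultures averaged 10.2 ± 0.69 (SD, n = 2).

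Nqo2, a quinone reductase that takes electrons from dihydronicotinamide riboside, stood at 6.88, 6.55, 7.20, 6.37 and 5.74 in E16 cultures, at 4.54, 4.34 and 3.25 in P1 cultures and at 7.10, 7.07, 6.39 and 6.76 in 4-month cultures, in the same order. Both grafted P1 clones were under the background limit, and no other culture of the 16 was. P1 differed from E16 by −2.58 ± 0.25 (at least 4.16-fold lower, adjusted p = 0.005), and 4 months from P1 by 2.69 ± 0.26 (at least 5.05-fold higher, adjusted p = 0.0206). HF cultures held 7.80 to 8.15, above every TEC culture, though TEC and HF over both states differed by −1.70 ± 0.68 with an adjusted p of 0.16. With donor stage in the model that adjusted p was 0.00105.

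Gsta4, which conjugates the lipid peroxidation product 4-hydroxynonenal and whose promoter window held 3 GCGTG cores, gave like values with both probe sets. The one with the larger spread stood at 8.76, 9.37, 9.53, 9.27 and 10.14 in E16, at 6.24, 6.28 and 6.15 in P1 and at 7.39, 7.40, 7.93 and 8.83 in 4-month cultures. P1 cultures were lowest and did not overlap with either other stage. P1 differed from E16 by −3.11 ± 0.25 (8.61-fold lower, adjusted p = 0.00141), and 4 months from P1 by 1.77 ± 0.27 (adjusted p = 0.0337). The other probe set differed by −2.67 ± 0.22 (adjusted p = 0.00141) and 1.41 ± 0.23 (adjusted p = 0.0476). Gstm2, a mu-class transferase, averaged 8.63 ± 0.35 in E16 (SD, n = 5), 7.31 ± 0.34 in P1 (n = 3) and 8.47 ± 0.38 in 4-month cultures (n = 4). It differed between P1 and E16 by −1.25 ± 0.16 (SE; adjusted p = 0.0079) and between 4 months and P1 by 1.25 ± 0.17 (adjusted p = 0.0322).

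Ephx1, the microsomal epoxide hydrolase, averaged 8.37 ± 0.72 in P1 (SD, n = 3) and 10.14 ± 0.48 in E16 cultures (n = 5), a difference of −1.84 ± 0.35 (SE; adjusted p = 0.0206). The 4-month cultures stood at 9.75, 9.44, 10.45 and 8.99. Sult1b1 differed between P1 and E16 by −2.66 ± 0.50 (adjusted p = 0.0205) and Sult1d1 by −2.35 ± 0.49 (adjusted p = 0.0267), and their culture values are those given above. The E16 and P1 values of Sult1d1 overlapped, with the ungrafted PRE16cl11_VII at 4.04 below both grafted P1 clones. Gstm4 differed by −0.91 ± 0.22 (adjusted p = 0.0377).

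Of the members higher in P1, Cyp3a9, a P450 of the subfamily that oxidises steroids and many drugs, stood at 9.69, 9.73 and 9.73 in P1, against 9.11, 8.55, 8.54, 8.94 and 8.62 in E16 cultures. The groups did not overlap (0.97 ± 0.19, 1.96-fold, adjusted p = 0.0212). Gstk1, a transferase of mitochondria and peroxisomes, stood at 7.5, 8.06 and 7.74 in P1 and at 6.38, 6.88, 7.46, 7.26 and 6.47 in E16 cultures, also without overlap (0.96 ± 0.22, adjusted p = 0.0356). Cyp2j3, a P450 that makes epoxides of arachidonic acid, passed as well (0.66 ± 0.13, adjusted p = 0.0206), but only Clone_194 (4.84) of these 8 cultures was above the limit, and no fold is given.

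Cyp2t1 was the member called between 4 months and E16. It averaged 6.62 ± 0.98 in 4-month (SD, n = 4) and 7.80 ± 0.58 in E16 cultures (n = 5), and its values in each culture are given above. The difference with transplantation state in the model was −1.57 ± 0.19 (SE; 2.97-fold lower, adjusted p = 0.0148). It was −1.62 without PRE16cl11_VII (adjusted p = 0.0553) and −1.61 without Clone_347 (adjusted p = 0.0502). Against P1 the 4-month cultures differed by −1.36 ± 0.21 (adjusted p = 0.0356). The 2 grafted 4-month cultures, Clone_907 at 6.31 and Clone_354 at 5.37, were the lowest of all 16 cultures.

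The P1 calls rested on 3 cultures. Without Clone_57 the comparison of P1 with E16 called 4 members and without Clone_194 it called 5, where it called 12 with all cultures. Over all probe sets it called 931 with all cultures, 83 without Clone_194 and 4 without Clone_57, and these 4 were the probe sets of Gsta4, Nqo1 and Nqo2. Gsta4 (both probe sets), Nqo1 and Nqo2 passed whichever culture was left out, with adjusted p of at most 0.0456. Without Clone_57 the calls of Gstm2 (adjusted p = 0.0708), Sult1b1 (−2.35, 0.194), Ephx1 (−1.42, 0.194), Cyp2j3 (0.66, 0.181), Cyp3a9 (0.89, 0.196), Sult1d1 (−1.91, 0.253), Gstk1 (1.08, 0.191) and Gstm4 (−0.93, 0.248) were lost. Without Clone_194 the same calls except that of Gstm2 were lost, with adjusted p of 0.0799 to 0.188. Single E16 or other cultures also ended the calls of Ephx1 (PRE16cl11_VII), Cyp3a9 and Sult1d1 (Clone_217), Gstk1 (PRE16cl11_VII, PRP1cl11_VII, Clone_217, Clone_347, Clone_354) and Gstm4 (PRE16cl11_VII, PRP1cl11_VII, PRP4mo_Cl09, Clone_287, Clone_347, Clone_354). Of the calls between 4 months and P1, that of Nqo2 was lost without Clone_57, Clone_194 or Clone_354 (adjusted p of up to 0.08). The others were lost without any 1 of 6 to 10 of the 12 cultures, Clone_57, Clone_194, PRP4mo_bulk, PRP4mo_Cl09, Clone_907 and Clone_354 among them in each case, with adjusted p of up to 0.254. The epithelial marker list averaged 8.15 to 9.25 in P1 and 8.62 to 9.83 in E16 cultures, and its part in these results was not tested.

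**Figure D4:**
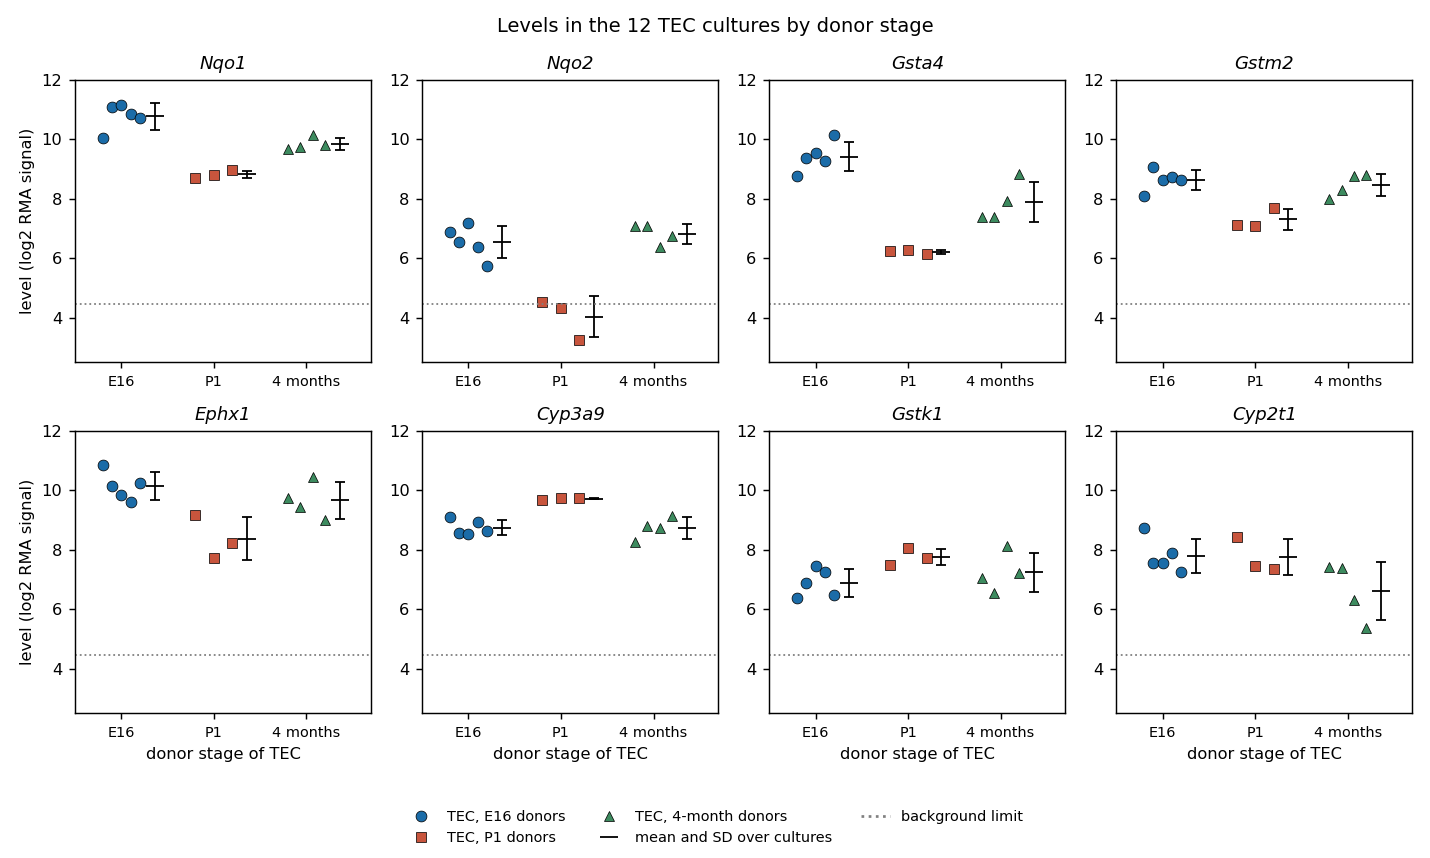
Levels (log2 RMA signal) of 8 enzyme genes in each of the 12 TEC cultures by donor stage (5 from E16, 3 from P1, 4 from 4-month rats), with bars for the mean and SD over cultures; Gsta4 is the probe set with the larger spread. Nqo1, Nqo2 and Gsta4 were lower in all 3 P1 cultures than in any E16 or 4-month culture, Cyp3a9 was higher in P1, and Cyp2t1 was lowest in 2 of the 4-month cultures.

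The regulators and partner genes of these enzymes were counted from lists chosen for the pathway. Of 13 measured regulators, 2 passed over both grafted TEC groups against ungrafted TEC, both higher: Ahr (1.30 ± 0.34, adjusted p = 0.0452) and Keap1 (0.30 ± 0.07, adjusted p = 0.0365). The median of the list was 0.0791, against 0.0117 over all probe sets, of which 2.4% were called higher and 2.44% lower. Between P1 and E16 Nfe2l2 (−0.39 ± 0.09, adjusted p = 0.0385) and its relative Nfe2l1 (−0.62 ± 0.14, adjusted p = 0.0356) were lower in P1, where 3.23% of all probe sets were. Neither of these P1 calls held without Clone_57. Between TEC and HF over both states Mafg (0.49 ± 0.10, adjusted p = 0.0222) and Maff (0.55 ± 0.13, adjusted p = 0.0343), small Maf partners of NRF2, were higher in TEC, where 2.1% of all probe sets were. Ahr ran from 8.27 to 9.92 in grafted and from 7.30 to 8.67 in ungrafted TEC cultures.

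Of 27 probe sets of NRF2 target and glutathione genes, 6 were higher and 0 lower after grafting, with a list median of 0.286, where 2.4% of all probe sets were higher and 2.44% lower. They were Gsr, which recycles glutathione (1.01 ± 0.23, adjusted p = 0.0248), the peroxidase gene Gpx2 (1.04 ± 0.25, adjusted p = 0.0336), the carbonyl reductase gene Cbr3 (0.91 ± 0.22, adjusted p = 0.0358), Gclm, a subunit of the first enzyme of glutathione synthesis (0.90 ± 0.24, adjusted p = 0.047), and 2 probe sets of Prdx1. The Prdx1 probe sets had nearly the same values in every culture, so their calls depend on each other. Grafted and ungrafted values of Gclm and of both Prdx1 probe sets overlapped. Whether these 6 calls hold with single cultures left out is not given here. Between P1 and E16 8 of the 27 were lower in P1 and 0 higher, with a list median of −0.353, against 0.00369 over all probe sets, of which 3.23% were lower and 2.85% higher. These were Gclc, the catalytic partner of Gclm (−0.46 ± 0.11, adjusted p = 0.0372), Srxn1 (−0.50 ± 0.12, adjusted p = 0.0406) and 6 probe sets of the ferritin gene Ftl1, whose many near copies leave these probe sets dependent on each other. None of these 8 calls held without Clone_57. Osgin1 was higher in TEC than in HF over both states (0.77 ± 0.18, adjusted p = 0.0346).

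Of 20 probe sets of other oxidation and conjugation enzymes, Cyb5b, a cytochrome b5 (0.36 ± 0.09, adjusted p = 0.0329), was higher and Tpmt, which methylates thiopurines (−0.55 ± 0.14, adjusted p = 0.0397), was lower over both grafted TEC groups against ungrafted TEC. After the second transplantation Cyb5a was lower too (−1.02 ± 0.22, adjusted p = 0.0263). Ces2c, a carboxylesterase, was lower in P1 than in E16 (−1.51 ± 0.33, adjusted p = 0.0309). Of 15 probe sets of drug transporters, Slco3a1 was lower in TEC than in HF over both states (−1.23 ± 0.15, adjusted p = 0.0015), and Abcc4 was higher in P1 than in E16 with 1 of its probe sets (0.77 ± 0.19, adjusted p = 0.0468). Of 17 P450 genes outside families 1 to 4, Cyp26b1, which breaks down retinoic acid, was higher in P1 than in E16 (1.12 ± 0.26, adjusted p = 0.0363). The P1 and E16 values of Ces2c, Abcc4 and Cyp26b1 overlapped. Cyp26b1 stood at 5.60 in the ungrafted PRP1cl11_VII, against 5.24 to 5.94 in E16 cultures. The P1 calls of Ces2c, Abcc4 and Cyp26b1 were all lost without Clone_57. Of all probe sets 4.83% passed after any and 3.86% after the second transplantation. Between P1 and E16 6.08% passed, and between TEC and HF over both states 4.17% did. Thus 1 call in a list of 15 to 20 lies near these shares. The 20 probe sets of other oxidation and conjugation enzymes held 3 calls after the second and 2 after any transplantation. Those counts lie above the shares, and the excess was not tested. Slco3a1 also passed before grafting (−1.45 ± 0.21, adjusted p = 0.00681). In the other comparisons these lists held 0 calls, apart from Slco3a1 among the 5 groups and Cyb5b and Tpmt after the second transplantation.

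**Figure D5:**
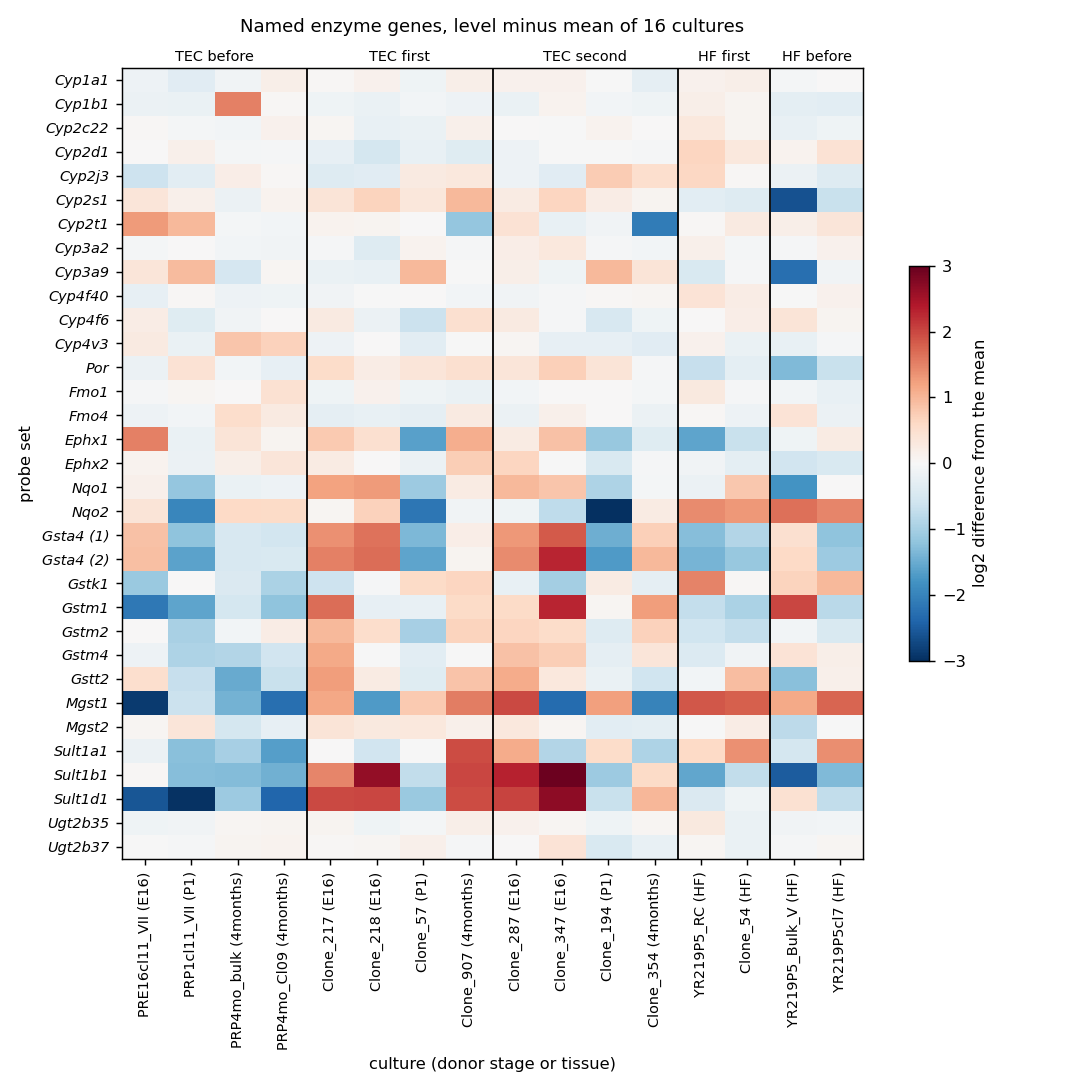
Level of each named enzyme probe set (rows, by family) minus its mean over 16 cultures (colour, log2, red higher, blue lower, colours end at ±3) in each culture (columns, by tissue and transplantation, with donor stage in brackets). The Sult1d1 and Sult1b1 rows are red in grafted E16 and 4-month TEC cultures, the Nqo2 and Gsta4 rows are blue in the P1 cultures, and rows of genes near background such as Ugt2b35 are pale.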

How the data were processed

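RNA of 16 cultures was measured on Affymetrix rat gene arrays, 2 per culture (32 in all). The deposited values are log2 signals that the authors made, per the submitters' processing notes, with Expression Console and RMA; software versions and settings are not given in the sources used here. Probe sets were named from the platform annotation: of 29215, 15316 had 1 symbol, 317 several and 13582 none listed. Both arrays of a culture were averaged (their correlation was at least 0.984), since labels number arrays, not donors, and the number of arrays limits the precision.

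The 16 means were fitted with limma 3.58.1 (R 4.3.3), 1 coefficient per group, and p-values were adjusted by Benjamini-Hochberg over 15316 probe sets with a threshold of 0.05. Errors are limma standard errors (SE) of differences or SD between cultures. Stage comparisons used the 12 TEC means with transplantation state as a factor, so their differences need not equal those of raw means. The fit was tested on simulated data. In the model with donor stage, HF cultures were given the mean TEC stage.

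Members and lists were chosen with earlier results of these data known. Named genes were members past the threshold, Sult1d1, Cyp2d1 and Cyp2t1, the 12 with the largest SD, the 2 with the smallest p where none passed, and family examples; other members named for their level or as neighbours fall outside this rule and were chosen after their values were seen. Alternatives were leaving out each culture, median centring, a filter on mean level, wider adjustment, arrays as the unit, fewer cultures, donor stage as a factor and clonal cultures alone; leaving out the first array of YR219P5_RC was added after seeing the data.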

Additional observations from a re-analysis of the deposited data

Results flagged for a closer look

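In groups of 4 or 5 cultures, a culture was singled out where its gap to the nearest other culture, divided by the range of the group, passed Dixon's critical value (0.829 for 4 cultures, 0.71 for 5). Of 165 tests on the named enzyme genes, 13 did so; chance flags about 1 in 20.

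Sult1d1 in Clone_57 stood at 5.51 after the first transplantation, against 8.56 to 8.62 in the other 3 cultures of that group (ratio 0.981). In the E16 cultures it stood at 4.04 in PRE16cl11_VII, the ungrafted one, against 8.58 to 9.30 in the others (0.864). Sult1b1 stood at 6.20 in PRE16cl11_VII, against 4.71 to 4.89 in the other ungrafted TEC cultures (0.884). Nqo2 stood at 4.54 in PRP1cl11_VII, against 6.88 to 7.10 in the other ungrafted TEC cultures (0.914). Gstm2 stood at 7.71 in Clone_194, against 8.64 to 8.79 in the other cultures after the second transplantation (0.863).

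Cyp2t1 stood at 6.31 in Clone_907, against 7.47 to 7.56 in the other TEC cultures after the first transplantation (0.93). Cyp2d1 stood at 4.81 in Clone_907, against 5.12 to 5.15 in the other 4-month cultures (0.908). Cyp1b1, a P450 induced through Ahr, stood at 5.35 in PRP4mo_bulk, where it was above the background limit, against 3.63 to 3.87 in the other ungrafted TEC cultures (0.862) and 3.67 to 3.87 in the other 4-month cultures (0.883).

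The remaining values lay under the background limit. Cyp1b1 stood at 3.94 in Clone_347, against 3.62 to 3.71 in the other E16 cultures (0.723). Cyp2c22 stood at 2.98 in Clone_218, against 3.18 to 3.26 in the other E16 cultures (0.714). Fmo4 stood at 3.94 in Clone_907, against 3.38 to 3.44 in the other TEC cultures after the first transplantation (0.887). Ugt2b37 stood at 3.40 in Clone_347, against 2.97 to 3.04 in the other E16 cultures (0.834).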

How the results depend on the processing

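Over 29 calls of single members and 561 repeats under other settings, 393 kept the direction and the call, 168 kept the direction without the call and 0 reversed; 5 calls held whichever culture was left out. Counts of members called moved more. The shares of all probe sets called under these settings are not given here. A rise or fall in these counts thus cannot be read as particular to the enzyme genes. Where leaving out a culture left 1 HF culture in a group, that culture was assumed to vary like the other groups. Leaving out 1 culture gave 0 to 4 calls for TEC against HF before grafting, 0 to 1 after the first transplantation against before, 0 to 3 after the second, 0 to 4 after any, 0 to 2 for HF after against before, 0 to 1 for TEC against HF after the first transplantation, 1 to 6 over both states, 0 to 1 for the interaction, 0 to 5 among the 5 groups, 0 to 3 for 4 months against E16, 4 to 15 for P1 against E16 and 0 to 6 for 4 months against P1; for the second against the first transplantation and for TEC after the second against HF after the first it gave 0 throughout. With arrays as the unit, culture as a random block and array number as a replicate block, the same comparisons gave 10, 9, 7, 14, 0, 1, 10, 0, 15, 10, 16 and 10 calls, and TEC after the second against HF after the first transplantation gave 3; array numbers pair no animals, and the array fit takes 1 shared correlation for all genes. With donor stage as a factor, TEC against HF before grafting gave 4 calls, the first, second and any transplantation 2, 4 and 6, TEC against HF after the first transplantation 2, TEC after the second against HF after the first 1, both states 10 and the 5 groups 8. With clonal cultures alone 0 members were called after the second or any transplantation. Between P1 and E16 the calls of Gstk1 (adjusted p = 0.0517) and Gstm4 (adjusted p = 0.0769) were lost in that setting, and the others held. Only YR219P5cl7, Clone_54 and PRP4mo_Cl09 then remain for ungrafted HF, grafted HF and 4-month TEC. Calls from comparisons that use these groups cannot be judged with clonal cultures alone. At an adjusted p under 0.1 the counts were 2 for TEC against HF before grafting, 1, 4 and 5 for the first, second and any transplantation, 1 for TEC after the second against HF after the first, 8 over both states, 5 among the 5 groups and 4 for 4 months against E16. TEC against HF before grafting gave 2 with median centring, 2 among probe sets of mean level 5 or more and 2 with only the cultures compared, and that last setting gave 0 for TEC against HF after the first transplantation. The second transplantation gave 1 with median centring, 1 with adjustment over all probe sets and 1 without the first array of YR219P5_RC, and any transplantation gave 1 with adjustment over all probe sets. The 44 members above the background limit in no culture give no measurable fold at this signal. Cyp4f40, called between TEC and HF over both states, is among them.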
